A study of Mus musculus with 27 samples.

Results

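The genes in view encode CTCF and the core of the cohesin machinery, 9 in all: Ctcf, Rad21, Smc1a, Smc3, Stag1, Stag2, Nipbl, Pds5a and Pds5b. They were chosen by name and not by a rule on their measured values, though earlier results of these data were known. Each of the 9 had a row in both tables of gene expression, which list 23295 genes for parental cells and 24247 genes for cells carrying an shRNA, and all 9 passed the filter on low values (1 FPKM or more in 2 or more libraries), as did 11309 and 11450 genes in all. FPKM is the number of fragments per unit of transcript length and of sequencing depth, so its values can be set side by side between genes. Peaks of lamin B1 ChIP-seq and ATAC-seq were read at the same 9 loci on the mouse genome build mm9.

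All data come from NMuMG, an epithelial cell line from the mouse mammary gland that goes through an epithelial to mesenchymal transition (EMT) when treated with TGF-β, a growth factor. Cells were untreated or had received TGF-β at 1 to 5 ng/ml for 8 or 24 h. RNA-seq covered parental cells and cells infected with a lentivirus for either a control shRNA (control) or an shRNA against lamin B1 (KD), with 2 libraries for each combination of cells and time, 6 parental and 12 shRNA libraries. Lamin B1 ChIP-seq and ATAC-seq had 1 library per time point, each ChIP library being a mix of parallel ChIPs, so that peaks have no replicate error. The ChIP used lightly sonicated chromatin enriched in open regions (euchromatin). The study states that larger fragments, from compact chromatin, were not sequenced. The shRNA cells, control and KD alike, were selected with puromycin. The study's methods call the 2 libraries of a group biological replicates, without saying how the cultures were separated, and p-values rest on the spread between these libraries.

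Cohesin is a ring that encircles chromatin. SMC1A and SMC3 form its arms, RAD21 closes it, and STAG1 or STAG2 binds to RAD21 in alternative forms of the complex. NIPBL loads the ring and drives the extrusion of DNA loops, PDS5A and PDS5B bind to the ring and take part in both its release and its protection, and CTCF is a DNA-binding protein at which extruding cohesin halts, so that loop anchors and domain borders often lie at CTCF sites. The same ring holds sister chromatids together in dividing cells.

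The promoters of Ctcf and of the genes for the ring itself are shown because 3 of them carried a lamin B1 peak and 1, Smc1a, did not at any time. They are the bases of mm9 just upstream of the first exon on the strand of the gene, in lower case, with the GC box GGGCGG on either strand (GGGCGG or CCGCCC) in capitals. Over the 10625 tested genes that could be placed on mm9, 59.9% of the 300-base windows upstream of the first exon held this GC box, the median GC content was 58% and the median number of CpG dinucleotides was 17. The run for Smc1a is cut at 132 bases because the exon of the divergent gene Ribc1, whose start lies 133 bp away, begins there.
Ctcf, chr8:108160168-108160467, plus strand: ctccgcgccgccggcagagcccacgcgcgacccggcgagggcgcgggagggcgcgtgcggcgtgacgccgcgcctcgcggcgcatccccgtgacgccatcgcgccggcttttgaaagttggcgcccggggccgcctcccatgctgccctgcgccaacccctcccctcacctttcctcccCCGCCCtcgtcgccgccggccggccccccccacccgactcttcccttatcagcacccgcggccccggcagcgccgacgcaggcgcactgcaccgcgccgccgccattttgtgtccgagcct
Rad21, chr15:51823307-51823606, minus strand: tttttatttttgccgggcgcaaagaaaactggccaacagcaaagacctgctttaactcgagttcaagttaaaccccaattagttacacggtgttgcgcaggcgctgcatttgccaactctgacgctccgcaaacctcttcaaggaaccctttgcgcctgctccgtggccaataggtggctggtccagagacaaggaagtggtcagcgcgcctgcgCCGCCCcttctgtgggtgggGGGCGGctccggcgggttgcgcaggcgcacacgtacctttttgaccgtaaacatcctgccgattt
Smc1a, chrX:148450839-148450970, plus strand: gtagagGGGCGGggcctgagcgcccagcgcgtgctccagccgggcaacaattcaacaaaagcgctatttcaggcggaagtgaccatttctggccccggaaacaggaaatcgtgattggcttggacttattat
Smc3, chr19:53674586-53674885, plus strand: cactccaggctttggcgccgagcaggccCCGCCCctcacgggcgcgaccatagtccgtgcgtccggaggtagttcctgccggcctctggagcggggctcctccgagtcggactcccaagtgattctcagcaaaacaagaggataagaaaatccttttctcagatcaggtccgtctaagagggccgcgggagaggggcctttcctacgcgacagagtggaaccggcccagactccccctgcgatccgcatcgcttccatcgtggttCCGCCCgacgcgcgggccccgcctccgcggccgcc
The window of Ctcf had 49 CpGs and 77.3% GC, with 1 GC box. Rad21 had 22 CpGs, 56.3% GC and 2 GC boxes, and Smc3 had 32 CpGs, 66.3% GC and 2 GC boxes. Counted over its full 300 bases, the window of Smc1a had 17 CpGs, as many as the median promoter. Of the other 5 genes, Stag2 had no GC box, and the windows of Stag1 and Pds5a held 5 each. Pds5a was the richest in CpG of the 9 with 62, above 99.9% of all promoters.

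Lamin B1 itself, the target of the KD, was checked first. Lmnb1 stood at 29.2 and 36.5 FPKM in untreated control cells and at 9.01 and 9.27 FPKM in untreated KD cells, and it was lower in each KD library than in each control library of the same time. After 24 h of TGF-β the control libraries had 18.4 and 17.9 FPKM and the KD libraries 4.37 and 7.52 FPKM. Of 8 epithelial markers, Krt8, Krt18 and Cdh1 were expressed in all libraries, while Cldn3, Cldn7 and Esrp1 stayed under 1 FPKM in each. Of 9 mesenchymal markers 8 were called higher and 1 lower in parental cells at 24 h. Over all tested genes 33.4% were called higher and 37.1% lower there. Of 4 tested epithelial markers 2 were higher and 1 lower in the same cells. In control cells at 24 h 3 of 5 were higher, among them Cldn4 (log2 difference 3.36) and Epcam (0.41), and Cdh1 was lower (−2.02). The endothelial list summed to at most 1.51 FPKM, the haematopoietic list to at most 1.94 FPKM and the adipocyte list to at most 5.87 FPKM in any library. One library stood apart. The second KD library at 24 h agreed least with its partner (r = 0.960 over tested genes, against 0.971 to 0.983 for the other 5 shRNA pairs), and the difference between these 2 libraries rose with the GC content of the transcript (Spearman rho 0.408 over 10198 genes, a description over genes, with −0.203 to 0.0344 for the other pairs). In both pairs of 8 h the difference between the 2 libraries went with transcript length instead (rho −0.319 in control and −0.293 in KD cells), the transcripts of the members are 3604 (Rad21) to 8815 (Nipbl) bases long, and the part of length in the 8 h values was not tested. Many results that rest on the second KD library at 24 h are given with and without it, but not each value of a single gene.

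In untreated parental cells Rad21 was the most abundant of the 9, with 142 ± 0.721 FPKM (mean ± SD, n = 2), above 95.01% of tested genes. Smc1a followed with 68.1 ± 1.99 FPKM, then Smc3 with 42.3 ± 0.712, Pds5a with 39.3 ± 1.502, Ctcf with 33.6 ± 0.920 and Stag2 with 31.3 ± 1.46 FPKM. Nipbl (19.8 ± 1.91 FPKM) and Stag1 (19.4 ± 0.718 FPKM) came next, and their libraries overlapped, so these neighbours in the order do not differ beyond their spread. Pds5b was lowest with 13.4 ± 1.11 FPKM, above 51.0% of tested genes. Thus the 3 proteins of the ring were not encoded at equal RNA levels, and within each paralogue pair 1 gene prevailed, Stag2 over Stag1 and Pds5a over Pds5b. Nothing was tested between genes. The order was similar elsewhere, but Pds5a stood above Smc3 in all 6 control libraries, in the KD libraries of 8 h and 24 h, in both parental libraries at 24 h and in 1 at 8 h. Stag2 stood above Ctcf in both untreated KD libraries. At 24 h it did so in both control libraries, the first KD library and 1 parental library. In the second KD library at 24 h Ctcf stood above Smc3, and the order of Nipbl and Stag1 varied.

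**Figure D1:**
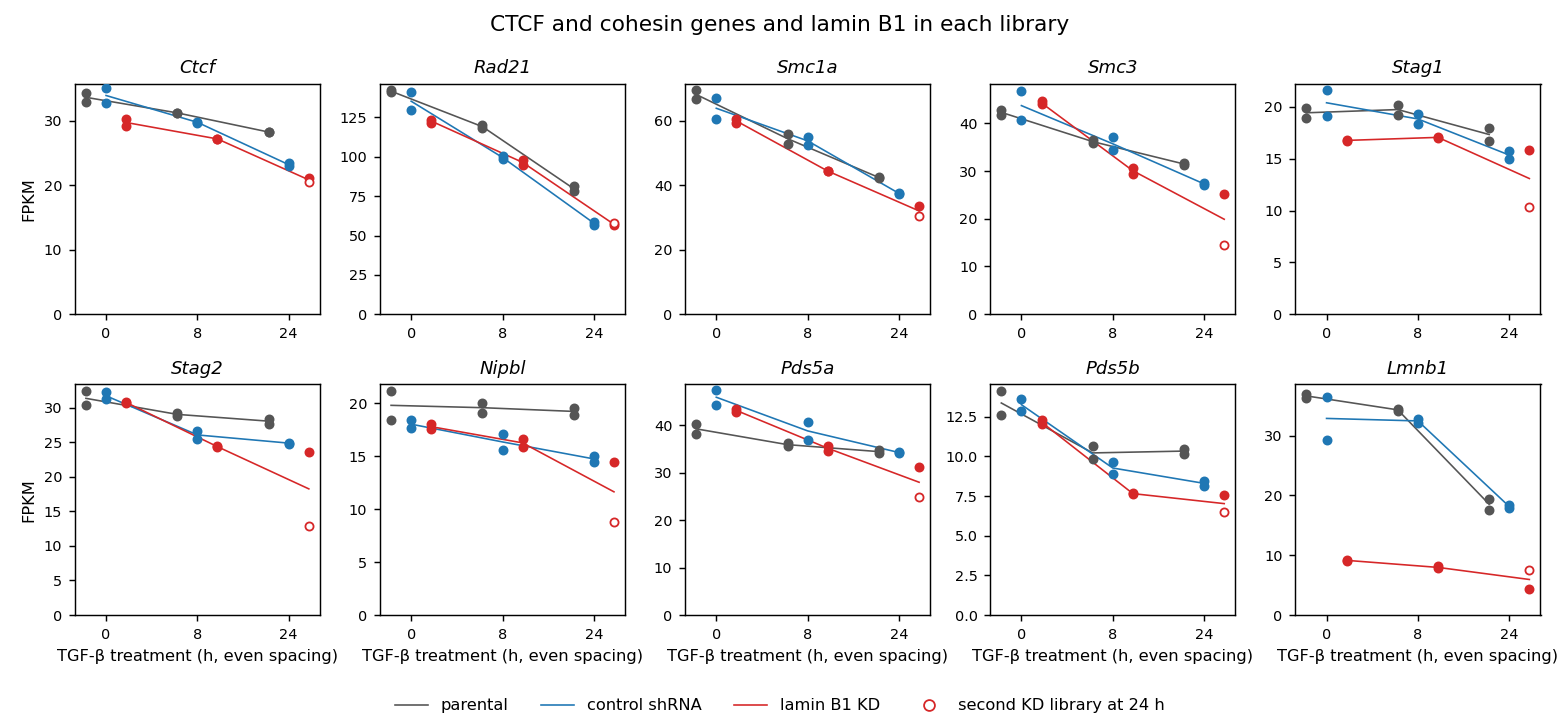
FPKM (vertical axis, from 0, a scale for each gene) of the 9 genes and of Lmnb1 against hours of TGF-β treatment in parental, control and KD cells. Points are libraries, lines join the means of 2 libraries, and the open point is the second KD library at 24 h, which lies far below its partner for Smc3, Stag2, Nipbl and Stag1 but not for Rad21 or Ctcf.

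TGF-β lowered the RNA of the cohesin ring in parental cells. At 24 h Rad21 had the largest difference of the 9, while at 8 h those of Pds5b and Smc1a were larger. At 8 h 5 of the 9 genes were called lower (limma, Benjamini-Hochberg adjusted p under 0.05) and none higher, against 32.1% of all tested genes called lower. At 24 h 8 of 9 were called lower, against 37.1% of all genes, and the median difference of the 9 was −0.24 on the log2(FPKM + 1) scale, against −0.02 for all genes tested. From 8 h to 24 h 5 of 9 (Rad21, Smc1a, Smc3, Ctcf and Stag1) were lower, against 24.0% of all genes, and 3 to 4 were when 1 library was left out, with Rad21, Smc1a and Smc3 called each time. In bulk RNA fewer cells that express a gene and less RNA per cell cannot be told apart.

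Rad21, the subunit that closes the ring, had 141 and 142 FPKM in untreated parental cells, 118 and 120 after 8 h, and 81.3 and 78.2 after 24 h. The 3 times did not overlap, and the mean at 24 h was 56.3% of the untreated mean. Its difference was −0.25 ± 0.037 (log2 ± SE, adjusted p = 0.00143) at 8 h and −0.82 ± 0.037 (adjusted p = 2.78e-06) at 24 h. Smc1a, one arm of the ring, had 66.7 and 69.5 FPKM in untreated cells, 52.8 and 56.0 at 8 h, and 42.2 and 42.6 at 24 h. It was lower at each later time with no overlap, by −0.32 ± 0.044 at 8 h (adjusted p = 0.00102) and −0.67 ± 0.044 at 24 h (adjusted p = 1.30e-05). The other arm, Smc3, had 41.8 and 42.8, then 35.8 and 36.5, then 31.4 and 31.6 FPKM. It fell in the same order of times but less far, to 74.4% of the untreated mean at 24 h (log2 difference −0.42 ± 0.038, adjusted p = 6.04e-05).

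The STAG subunits moved little. Stag2 had 30.3 and 32.4 FPKM in untreated cells, 28.8 and 29.3 at 8 h, and 27.7 and 28.4 at 24 h, and its difference at 24 h was −0.15 ± 0.046 (adjusted p = 0.0190). Stag1 had 18.9 and 19.9 FPKM, then 20.2 and 19.3, then 18.0 and 16.7, so that untreated and 8 h libraries overlapped and those at 24 h lay below both. At 24 h its difference was −0.16 ± 0.055 (adjusted p = 0.0364). Both calls at 24 h were lost after quantile normalization and in some of the fits without 1 library, whereas those of Ctcf, Rad21, Smc1a, Smc3, Pds5a and Pds5b were kept under all alternatives other than a 2-fold minimum.

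Ctcf had 33.0 and 34.3 FPKM in untreated parental cells, 31.2 in both libraries at 8 h, and 28.3 and 28.2 at 24 h. The groups did not overlap, and the difference at 24 h was −0.24 ± 0.039 (adjusted p = 0.00112), while at 8 h it missed the threshold (−0.10, 95% interval −0.20 to −0.01, adjusted p = 0.0591). Among the regulators, Pds5b had 12.6 and 14.1 FPKM in untreated cells, 9.80 and 10.6 at 8 h, and 10.2 and 10.5 at 24 h. It fell by 8 h, and the libraries of 8 h and 24 h overlapped, with −0.36 ± 0.068 at 8 h (adjusted p = 0.00431) and 0.02, 95% interval −0.15 to 0.18, between 8 h and 24 h. Pds5a fell less, to 87.8% of the untreated mean at 24 h (−0.18 ± 0.042, adjusted p = 0.00639). Nipbl, the loader, had 18.4 and 21.2 FPKM in untreated cells, 19.1 and 20.1 at 8 h, and 18.9 and 19.6 at 24 h. All its groups overlapped, and the 95% interval of its difference at 24 h was −0.20 to 0.12.

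**Figure D2:**
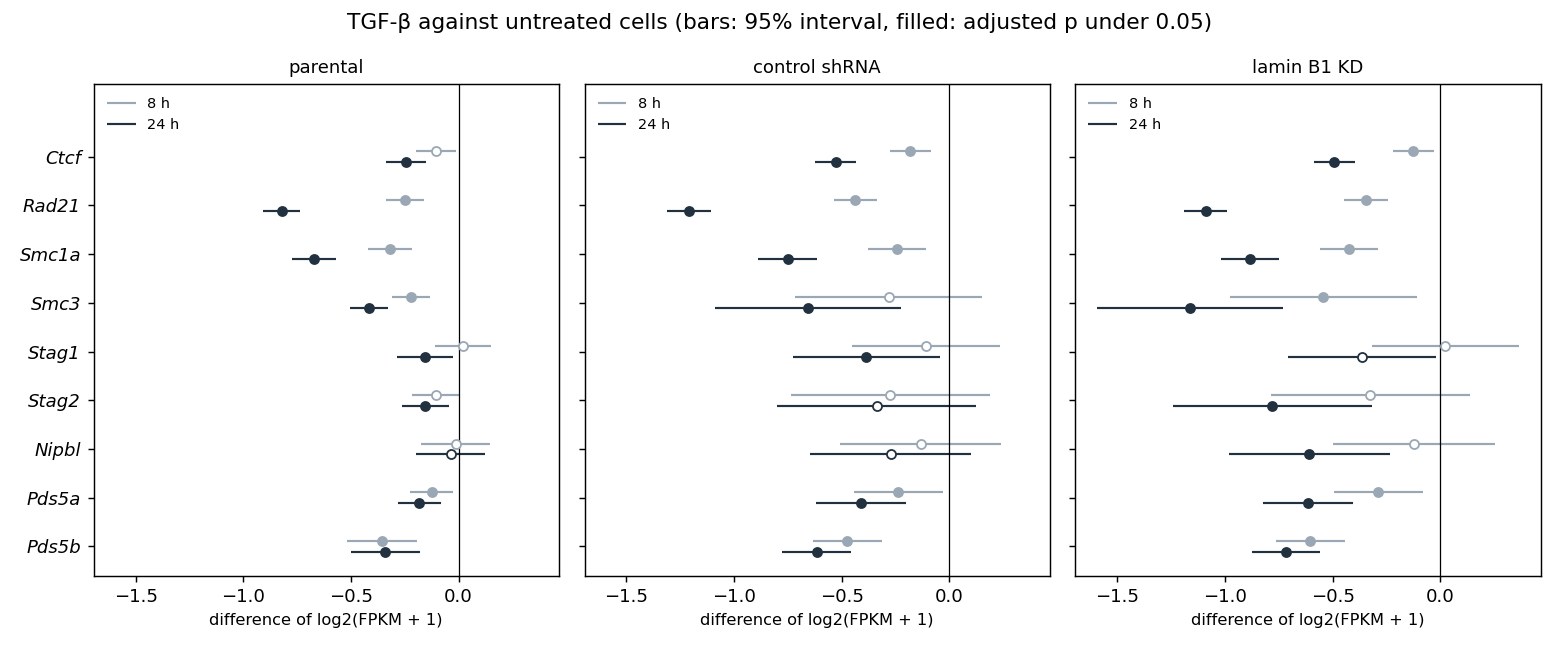
Difference between TGF-β treated and untreated cells in log2(FPKM + 1) for the 9 genes (horizontal axis) in parental, control and KD cells at 8 h and 24 h. Points are limma estimates with 95% intervals, filled where the adjusted p was under 0.05. Rad21 lies furthest left at 24 h in parental and control cells, at −0.82 and −1.21.

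The shRNA libraries are a separate experiment with the same treatment. In control cells 5 of 9 genes were called lower at 8 h, against 44.9% of all tested genes, a share near that background. At 24 h 7 of 9 were called lower, against 45.1% of all genes. In KD cells 6 of 9 were lower at 8 h (all genes 44.8%) and 8 of 9 at 24 h (all genes 43.3%). In these libraries the median of all genes itself lay at −0.14 and −0.13 in control cells and at −0.13 and −0.10 in KD cells at 8 h and 24 h, so the differences of the members are to be read relative to it. The medians of the 9 genes were −0.24 and −0.53 in control cells and −0.32 and −0.72 in KD cells, where without the second KD library the median at 24 h was −0.47. Quantile normalization, which removes the shift, left 3 and 6 of 9 members lower in control cells (all genes 31.7% and 34.1%) and 4 and 8 in KD cells (all genes 35.2% and 35.8%). None was called higher in any of these comparisons. The second KD library at 24 h shares the estimate of the spread. Without it more members, and more of all genes, were called lower in control cells at both 8 h and 24 h. In KD cells at 8 h fewer of both were called without the first untreated KD library or either KD library of 8 h.

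In control cells Rad21 had 129 and 141 FPKM before treatment, 100.3 and 98.9 at 8 h, and 57.0 and 58.7 at 24 h. In KD cells it had 124 and 122, then 95.1 and 97.9, then 56.6 and 57.6 FPKM. Within each kind of cell no 2 times overlapped, and the difference at 24 h was −1.21 ± 0.044 in control cells (adjusted p = 4.71e-08) and −1.09 ± 0.044 in KD cells (adjusted p = 7.00e-08). Smc1a went from 60.5 and 67.2 FPKM to 55.0 and 52.5 and then to 37.7 and 37.2 FPKM in control cells. In KD cells it went from 60.5 and 59.3 FPKM to 44.5 and 44.3 and then to 33.6 and 30.5 FPKM. Its differences at 24 h were −0.75 ± 0.059 and −0.88 ± 0.059, with adjusted p = 4.55e-06 and 1.48e-06.

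Ctcf fell at 24 h by a similar step in both kinds of cells, from 32.8 and 35.0 to 23.0 and 23.4 FPKM in control cells and from 30.3 and 29.2 to 21.2 and 20.5 FPKM in KD cells. The differences were −0.53 ± 0.042 and −0.49 ± 0.042. Pds5b went from 12.9 and 13.6 to 8.13 and 8.46 FPKM in control cells and from 12.02 and 12.3 to 7.57 and 6.47 FPKM in KD cells (−0.62 ± 0.070 and −0.72 ± 0.070). For Pds5a the differences at 24 h were −0.41 ± 0.091 and −0.61 ± 0.091. Without the second KD library at 24 h those of KD cells were −0.47 for Ctcf, −0.62 for Pds5b, −0.46 for Pds5a and −0.82 for Smc1a. Rad21, Smc1a, Ctcf, Pds5a and Pds5b kept their calls at 24 h in both kinds of cells under all alternatives other than a 2-fold minimum, under which Rad21 alone was called in control cells and Rad21 and Smc3 in KD cells.

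Smc3, Stag2, Nipbl and Stag1 are where the second KD library at 24 h matters. Smc3 had 25.2 FPKM in the first KD library at 24 h and 14.6 in the second, against 27.6 and 27.1 in control cells. Stag2 had 23.6 and 12.8 FPKM against 24.9 and 24.8, and Nipbl had 14.4 and 8.83 against 14.5 and 15.0. In each of these the first KD library lay close under the control libraries and the second far below. Stag1 had 15.9 and 10.3 FPKM. Of all tested genes, only 0.821% (for Stag2) to 2.38% (for Stag1) had a more negative difference between the 2 KD libraries than these 4. Their transcripts have GC contents of 38.1% to 42.9%, against 45.1% for Rad21, which had 56.6 and 57.6 FPKM, but Pds5b with 40.8% had only a small gap (7.57 and 6.47 FPKM). Whether the base composition of that library takes part in these values was not tested. With this library left out, the difference from untreated KD cells at 24 h went from −1.16 to −0.79 for Smc3, from −0.78 to −0.37 for Stag2 and from −0.61 to −0.28 for Nipbl, and all 3 were still called (adjusted p = 4.21e-05, 9.28e-05 and 0.00358). Stag1, not called with it (−0.36, adjusted p = 0.0555), stood at −0.07 without it (adjusted p = 0.373).

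Whether the KD changed the response to TGF-β was tested as an interaction of KD and treatment. At 8 h no member was called, and none had an unadjusted p under 0.05 (lowest 0.05998, Smc1a), against 4.06% of all tested genes called by limma and 2430 genes at an unadjusted p under 0.05. At 24 h again no member was called or had an unadjusted p under 0.05 (lowest 0.0880, Rad21), against 4.72% called and 2713 genes at an unadjusted p under 0.05. The 95% intervals at 24 h were narrow for Rad21 (−0.02 to 0.26) and Ctcf (−0.10 to 0.17) and wide for Smc3 (−1.12 to 0.11) and Stag2 (−1.10 to 0.21). The median of the 9 in this comparison at 24 h was −0.13, against 0.03 for all genes. Without the first KD library at 24 h it was −0.27 and without the second −0.01, with all genes at 0.03 in both.

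The KD itself went with slightly lower levels of Ctcf, Smc1a, Pds5a and Pds5b. Averaged over the 3 times, 4 of 9 members were called lower and none higher in KD against control cells, against 24.1% of all tested genes called lower, and the median of the 9 was −0.19 against 0.0042 for all genes. Without the second KD library at 24 h that median was −0.12. Ctcf, Pds5a, Pds5b and Stag2 were lower in both KD libraries than in both control libraries at each time. How many of all genes were so was not counted, and Stag2 was not called by limma (−0.21, adjusted p = 0.170). For Ctcf the 8 h values were 27.2 and 27.1 FPKM in KD cells and 29.7 and 29.9 FPKM in control cells, and its mean difference was −0.15 ± 0.024 (adjusted p = 0.000969). Smc1a differed by −0.19 ± 0.034 (adjusted p = 0.00176), Pds5b by −0.19 ± 0.041 (adjusted p = 0.00420) and Pds5a by −0.17 ± 0.053 (adjusted p = 0.0236). Without the second KD library at 24 h the differences of Smc1a, Pds5b and Pds5a were −0.17, −0.16 and −0.12. Ctcf, Smc1a and Pds5b kept these calls under all alternatives other than a 2-fold minimum. Rad21 was not called (−0.07, 95% interval −0.13 to −0.01, adjusted p = 0.0536). Under quantile normalization Rad21 (−0.08, adjusted p = 0.0187) and Stag1 were called as well, 6 of 9, against 3022 of 11450 genes called lower. More members, and more of all genes, were called lower without the first or without the second KD library at 24 h. The medians of the 9 were then −0.23 and −0.12.

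Single times gave fewer calls. In untreated cells 1 of 9, Ctcf, was called lower, a share near the 9.09% of all genes. At 8 h 3 of 9 (Ctcf, Smc1a and Pds5b) were lower, against 16.5% of all genes, and at 24 h 4 of 9 (Ctcf, Smc1a, Pds5a and Pds5b), against 11.5%. Smc1a showed the clearest gap at 8 h, with 55.0 and 52.5 FPKM in control and 44.5 and 44.3 FPKM in KD cells (−0.27 ± 0.059, adjusted p = 0.00838). None of the calls at a single time was kept when each library was left out in turn. At 24 h more members, and more of all genes, were called lower without the first KD library, and the median of the 9 went from −0.24 to −0.45. Without the second KD library that median was −0.11 and no member was called, nor was any without either control library. At 8 h and in untreated cells some fits without 1 library left no member called, and others called more than with all libraries.

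**Figure D3:**
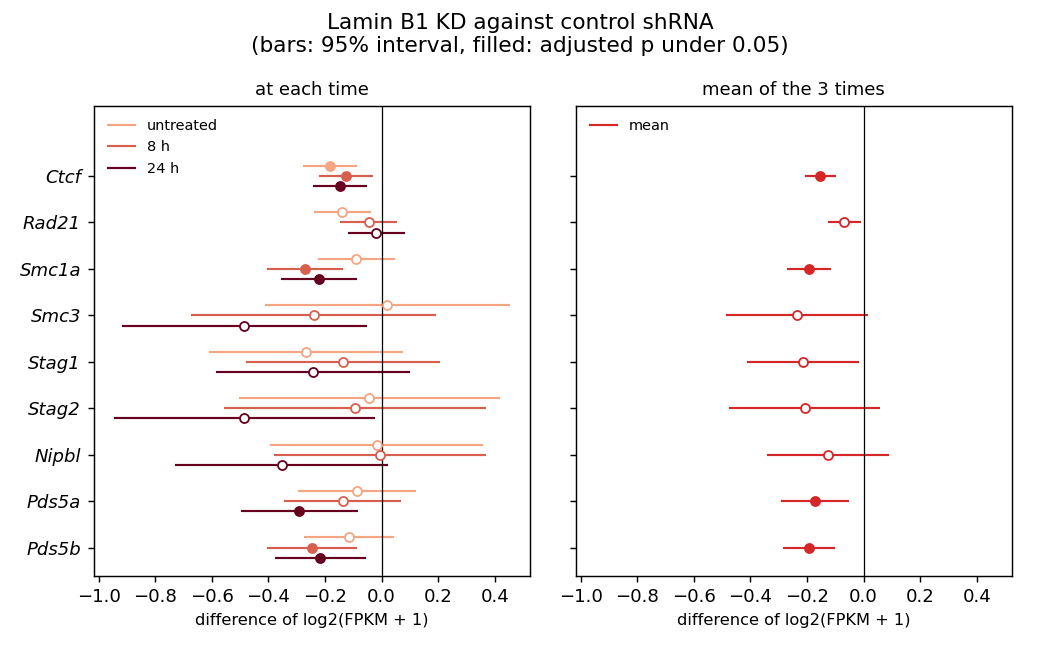
Difference between KD and control cells in log2(FPKM + 1) for the 9 genes, at each time (left) and averaged over the 3 times (right). Points are limma estimates with 95% intervals, filled where the adjusted p was under 0.05; Ctcf is filled throughout, at −0.18, −0.13 and −0.15 at the 3 times.

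The balance between alternative subunits was compared as a ratio of FPKM values. Stag2 to Stag1 was 1.63 and 1.48 in untreated control cells and 1.83 in both untreated KD libraries. At 8 h it was 1.38 in both control libraries and 1.43 in both KD libraries, and at 24 h 1.66 and 1.58 in control cells and 1.49 and 1.25 in KD cells. The KD libraries thus lay above the control libraries at 0 and 8 h and below them at 24 h, and averaged over times the log2 ratio differed by 0.01 (exact permutation test within times, two-sided p = 0.861, smallest possible 0.00926). Pds5a to Pds5b was 3.45 and 3.48 in untreated control cells and 4.21 and 4.17 at 8 h, and 3.61 and 3.49 and then 4.65 and 4.54 in KD cells. In parental cells the same ratio was 3.04 and 2.85 in untreated cells and 3.70 and 3.35 at 8 h. At 24 h it was 4.22 and 4.04 in control cells and 4.11 and 3.84 in KD cells, which overlapped. In each kind of cell the 8 h libraries were above the untreated ones. KD and control cells differed in it by 0.04 on the log2 scale (exact permutation test, two-sided p = 0.269). Neither p shows that the ratios were alike.

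**Figure D4:**
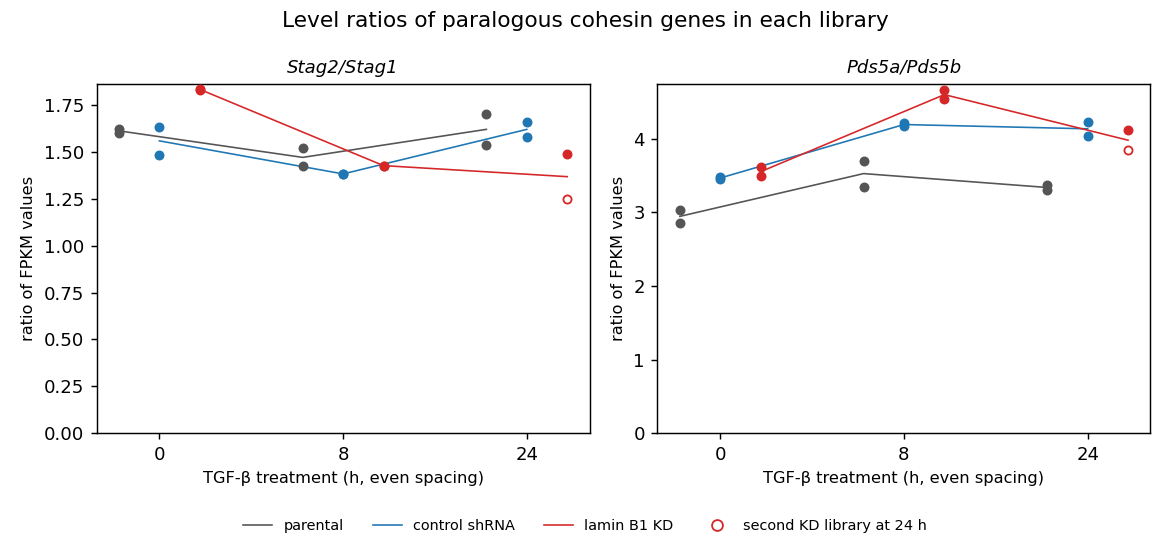
Ratio of FPKM values of Stag2 to Stag1 (left) and Pds5a to Pds5b (right), vertical axes from 0, against hours of TGF-β treatment. Points are libraries, lines join means of 2 libraries, and the open point is the second KD library at 24 h, at 1.25 for Stag2 to Stag1.

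Other genes of the cohesin pathway were lower too, several by more than any member. Of 19 listed partners 14 were expressed enough to be tested, while the meiotic subunits Smc1b, Stag3, Rec8 and Rad21l and the germ-line CTCF paralogue Ctcfl were not. In parental cells at 24 h 9 of the 14 were called lower (all genes 37.1%) and 1 higher, with a median of −1.17, led by Dscc1, part of a clamp loader used in cohesion establishment (−1.73), Sgol1, which protects centromeric cohesion (−1.43), and Esco2, the acetyltransferase of SMC3 in S phase (−1.32). In control cells 10 were lower (all genes 45.1%) and 0 higher (median −1.67), led by Pttg1, the inhibitor of separase (−2.06). In KD cells 10 were lower (all genes 43.3%) and 1 higher (median −1.94), led by Esco2 (−2.67). The gene that was higher in parental and KD cells was Hdac8, the deacetylase of SMC3, at 0.19 and 0.22, named here after its values were seen. The call of Hdac8 in KD cells was lost without the second KD library at 24 h. These leading genes act in cells that copy or separate their chromosomes. All 8 genes of condensin, the related complex that compacts mitotic chromosomes, were lower at 24 h in all 3 kinds of cells, with medians of −1.28 in parental, −1.85 in control and −2.41 in KD cells. Without the second KD library at 24 h the medians in KD cells were −2.03 for the partners, of which 11 were lower, and −2.23 for condensin, of which 8 were.

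Markers of dividing cells moved with these values. All 11 listed markers were lower at 24 h in parental, control and KD cells, and their summed level went from 1020 to 1037 FPKM in untreated parental cells to 371 to 402 FPKM at 24 h. In control cells the sum went from 907 to 1077 FPKM to 276 to 282 FPKM, and in KD cells from 868 to 872 FPKM to 175 to 201 FPKM. Averaged over times, where 24.1% of all genes were called lower, 10 of 11 were lower in KD than in control cells (median −0.48), as were 8 of 8 condensin genes (median −0.37) and 8 of 14 cohesin partners (median −0.24). Without the second KD library at 24 h these counts were 10, 8 and 9 (medians −0.46, −0.32 and −0.23). At single times the counts were uneven. Before treatment 3 of 11 markers (median −0.12), 0 of 8 condensin genes and 1 of 14 partners were lower in KD cells (all genes 9.09%). At 8 h 10, 6 and 6 were (all genes 16.5%), and at 24 h 11, 7 and 7 (all genes 11.5%). The part of cell division in the values of Rad21, Smc1a, Smc3 and the others was not tested. Of 12 tested chromatin architecture factors outside the SMC complexes, 6 were lower and 5 higher in parental cells at 24 h (median −0.03), where 37.1% of all genes were called lower and 33.4% higher. Among them were Top2a, a topoisomerase of dividing cells that also stands in the list of dividing cells, at −1.38, and Ldb1, a protein that bridges enhancers and promoters, at 0.76. Of 7 genes, those of the SMC5/6 complex and Smchd1, 5 were lower and 1 higher in the same comparison. The exception, Ndnl2, a subunit of that complex also known as Nsmce3, rose by 1.43 on the log2 scale in parental cells.

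Over the 12 shRNA libraries the genes whose log2(FPKM + 1) values were most like those of Ctcf were Anp32e, a histone chaperone (Pearson r = 0.992), Taf5, a subunit of the general transcription factor TFIID (0.991), and Dnajc7, a co-chaperone (0.990). For Rad21 they were Slc16a1, a lactate transporter (0.996), Nol7 (0.994) and Arhgap19 (0.994). Among the members Smc1a was most like Ctcf (r = 0.976, rank 48 of all tested genes), and Ctcf was most like Rad21 (0.960, rank 245). Nipbl, Stag1 and Stag2 were least like Rad21, at 0.729, 0.723 and 0.701. Without the second KD library at 24 h (11 libraries) these were 0.934, 0.761 and 0.806, and the genes most like Ctcf were G2e3, Bub3 and Cmss1, named here after their values were seen. These libraries share treatment times and the KD, so the values are descriptions.

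Lamin B1 peaks were listed at more of these genes after TGF-β than before, as they were over all genes. A gene counted as having a peak where one lay between 2500 bp upstream of its first annotated base and its 3′ end. That base can lie upstream of the transcription start site (TSS) used here, as for Stag1 (chr9:100498217 against 100543867). In untreated cells 4 of 9 had one, against 33.6% of 10625 placed and tested genes and 37.8% of those with at least 10 FPKM. At 8 h 8 of 9 did, against 56.5% and 60.7%, and at 24 h again 8 of 9, against 44.1% and 48.2%. The peak lists differ in length, with 4645, 10484 and 7083 peaks at the 3 times, and with lists of equal length the counts were 4, 5 and 7. With peaks at or above the median score of their list the counts were 2, 5 and 5. The 4 genes with a peak in untreated cells, Ctcf, Smc3, Nipbl and Pds5a, had one at each time.

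Smc3 had a peak over its TSS at each time, in untreated cells at chr19:53674686-53676191 with a MACS score of 137.5, above 92.7% of the peaks of that list. Nipbl had a pair of peaks on either side of its TSS in untreated cells. At 8 h 1 peak of 2279 bp covered the TSS, at chr15:8393409-8395687, with a score of 331, above 99.0% of its list. At 24 h there was again a pair, with scores of 116 and 109. At Ctcf the untreated peak began 392 bp inside the gene, and at 24 h a peak of 1961 bp with a score of 174 ran from −687 to 1273 bp relative to the TSS. Rad21 had none in untreated cells, where the nearest peak to its TSS was 113739 bp away, one from 265 to 1110 bp inside the gene at 8 h, and one over the TSS at 24 h with a score of 115. The peak of Stag2 at 8 h was among the lowest of its list (score 52.4, above 5.49% of the peaks), and that of Pds5b lay below the middle (75.5, above 45.2%).

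Smc1a was the exception. No time showed a lamin B1 peak there. With 1 library per time and no listed peak under a score of 50, this does not show that lamin B1 was absent. The nearest peak to the TSS of Smc1a was 671481 bp away in untreated cells, 127830 bp after 8 h and 127718 bp after 24 h. Smc1a and Stag2 are on the X chromosome, where fewer genes had a lamin B1 peak than over all chromosomes, 8.84% of 328 placed and tested genes before treatment, 39.6% after 8 h and 26.5% after 24 h. Stag2 had none in untreated cells and one from 17 to 755 bp inside the gene at 8 h. At 24 h it had a pair on either side of the TSS, with scores of 79.7 and 65.4.

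**Figure D5:**
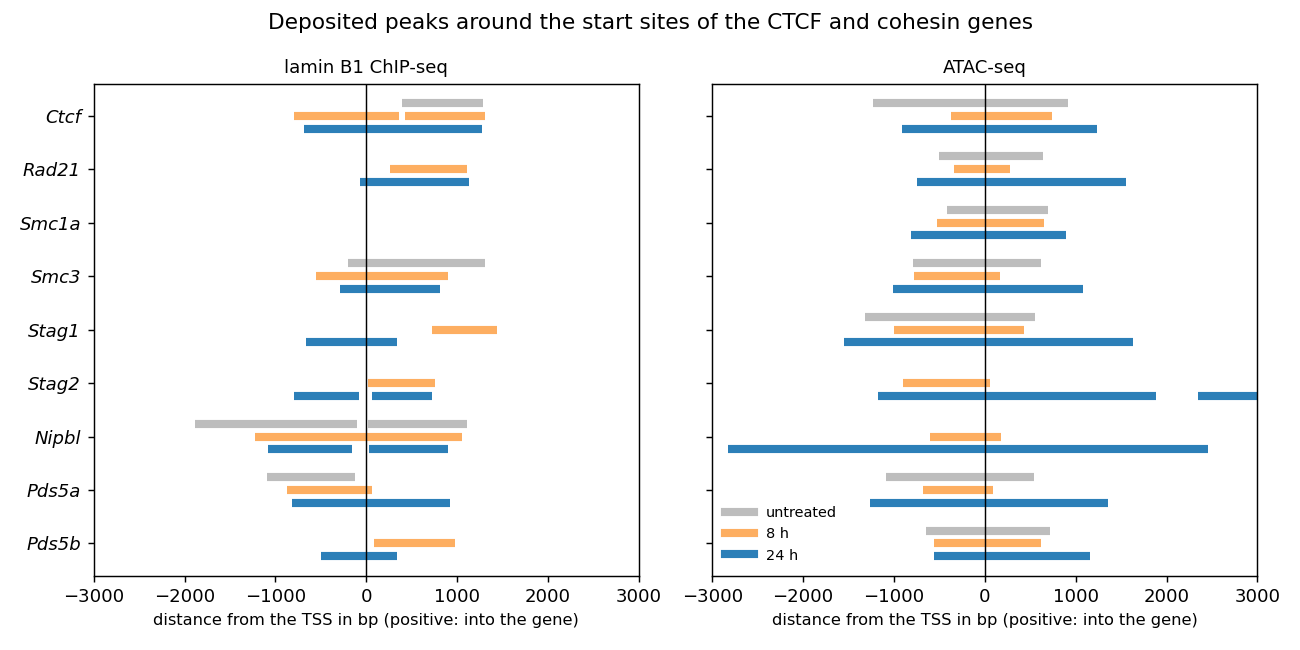
Peaks of lamin B1 ChIP-seq (left) and ATAC-seq (right) around the TSS of each gene, in bp from the TSS with positive values inside the gene. Bars are deposited peaks from 1 library per time, and Smc1a has no lamin B1 bar at any time while it has an ATAC bar at all 3.

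Chromatin at the start sites was open. In untreated cells 7 of 9 genes had an ATAC peak no more than 500 bp from the TSS, against 57.0% of placed and tested genes and 65.3% of those with at least 10 FPKM. So did 9 of 9 at 8 h, against 46.6% and 52.8%, and 9 of 9 at 24 h, against 85.1% and 92.8%, where the share of the members is near that of genes of such levels. The 2 without a peak in untreated cells were Stag2 and Nipbl, and at 8 h the peak of Stag2 had a score of 50.9, above 2.09% of its list. At 24 h the list was longest (33811 peaks, against 9782 and 10340), and the peak of Nipbl spanned 5284 bp. Smc1a, the gene with no lamin B1 peak, had ATAC peaks of 1104, 1178 and 1708 bp over its TSS, with scores of 138, 108 and 281, which it shares with Ribc1 on the other strand. With lists of equal length the counts were 7, 8 and 7.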

How the data were processed

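RNA-seq of 18 libraries, 6 of parental and 12 of shRNA cells, and lamin B1 ChIP-seq and ATAC-seq of 1 library per time point were used, while Hi-C was not analysed here. The authors deposited FPKM values per gene in 1 table for parental and 1 for shRNA cells. Neither table has a header, so columns were matched to groups through the names that the labels give the tables, and parental columns carry no replicate number. The submitters' processing notes name Bowtie, TopHat, Cufflinks and the build mm9, with no versions. The deposited peak lists hold positions and a MACS score per peak, with no counts. As the files give no counts, depth is unknown.

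Each table was fitted on log2(FPKM + 1) with limma 3.58.1 (trend, all groups of the table in 1 fit, R 4.3.3), over genes that reached 1 FPKM in 2 or more libraries, and p-values were adjusted by Benjamini-Hochberg over all genes tested with a threshold of 0.05. Fold changes on this scale understate those of low genes. The fits were tested on simulated data. Ratios were compared by an exact permutation test within times (216 arrangements, two-sided). Genes were placed by GENCODE M1 on mm9 (10625 of 11309 tested genes of the parental table). Lamin B1 peaks were counted from 2500 bp upstream of the first annotated base of the gene to its 3′ end. ATAC peaks were counted within 500 bp on each side of the TSS, both with an overlap of at least 1 bp. Python 3.11.15, numpy 2.4.6, pandas 2.3.3, scipy 1.17.1 and matplotlib 3.10.9 were used. The alternatives were a pseudocount of 0.1, no filter, quantile normalization, only the groups compared, a 2-fold minimum, a replicate block, leaving out each library, and stricter or wider peak rules. Leaving out the second KD library at 24 h from contrasts it is no part of, from medians, lists and the likeness of genes was chosen after seeing the data.

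The 9 members and the lists were chosen with earlier results of these data known. Besides the members and Lmnb1, at most the 3 called genes of largest difference are named per list and contrast, and the 3 genes most like Ctcf and Rad21.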

Additional observations from a re-analysis of the deposited data

How the results depend on the processing

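A pseudocount of 0.1 changed no member call. With a 2-fold minimum 1 member was called in control cells at 24 h, 2 in KD cells at 24 h, and 0 in the other contrasts. Under quantile normalization 3 members were called in control cells at 8 h. With no filter 2 were called in KD against control cells at 24 h, where 3022 of all 19170 genes were. With only the groups compared in the fit, KD against control gave 0 before treatment, 5 at 8 h and 0 at 24 h. Over all 11450 genes those fits called 732, 5563 and 710, against 2254, 4104 and 3241 with all groups in the fit. Peaks at or above the median score gave 2, 5 and 5 members with a lamin B1 peak at the 3 times in order, and 5 with an ATAC peak at 8 h. Lists of equal length gave 5 with a lamin B1 peak at 8 h.

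Leaving out 1 library in turn gave these ranges of called members, and the number called over all genes moved in the same fits. Against untreated cells they were 4 to 8 in control cells at 8 h and 3 to 7 in KD cells at 8 h, and in parental cells from 8 h to 24 h 3 to 4. For KD against control they were 0 to 3 in untreated cells, 0 to 4 at 8 h, 0 to 8 at 24 h and 3 to 8 averaged over times, and 0 to 4 for the interaction at 24 h. The counts of 8 at 24 h and over times, and of 4 for the interaction, were without the first KD library at 24 h, and the 0 at 24 h arose without the second and without either control library.

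Some differences, none of them called with all libraries, changed sign. Quantile normalization gave 0.0055 for Stag1 in control cells at 8 h, −0.013 for Ctcf and −0.0099 for Stag1 in the interaction at 24 h, −0.016 for Nipbl in that at 8 h, and −0.034 for Pds5b from 8 h to 24 h in parental cells. Without 1 library, the interaction at 24 h ran from −0.010 to 0.082 for Ctcf and −0.27 to 0.31 for Stag1, and that at 8 h from −0.050 to 0.072 for Nipbl and −0.12 to 0.019 for Pds5a. KD against control ran from −0.045 to 0.0090 for Nipbl and −0.076 to 0.12 for Smc3 in untreated cells, −0.068 to 0.055 for Nipbl at 8 h, and −0.040 to 0.0036 for Rad21 and −0.53 to 0.046 for Stag1 at 24 h. In parental cells Nipbl ran from −0.11 to 0.081 at 8 h, −0.13 to 0.056 at 24 h and −0.058 to 0.0086 between them, Stag1 from −0.014 to 0.058 at 8 h and Pds5b from −0.037 to 0.069 from 8 h to 24 h. The log2 ratio of Stag2 to Stag1 between KD and control cells ran from −0.032 to 0.053.

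Over all genes, the interaction at 24 h had 540 calls, 2709 without the first KD library at 24 h, and 88 with only the groups compared. KD against control at 24 h had 3241 calls, 710 with only the groups compared and 61 with a 2-fold minimum. With the replicate block 6 members were called in control cells at 24 h, 3 for KD against control at 24 h and 2 at 8 h, and the other counts did not change. In most pairs of groups same-numbered libraries did not deviate together (r of −0.135 to 0.368 over 15 pairs of groups, median 0.020, 2 above 0.1). The numbers were therefore not taken as pairs, and parental columns carry none. At 8 h, however, the libraries of control and KD cells shifted with transcript length in the same direction (rho −0.319 and −0.293). The 2 libraries per group, unknown depth and peaks without replicates limit what can be seen. The cause of these changes was not tested.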
